A study of Rattus norvegicus with 10 samples.

Results

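Tenomodulin (Tnmd), dermatopontin (Dpt), the platelet-derived growth factor receptors Pdgfra and Pdgfrb, fibroblast activation protein (Fap) and podoplanin (Pdpn), genes commonly used to mark tendon cells and fibroblasts, were followed in bone-derived cells of the rat skull and limb. The 6 genes were chosen with earlier results of these arrays, their site differences included, already known. The rule then selected on the mean signal over all 10 arrays: each gene was to be represented by its brightest probe, but the 5 genes that were found had 1 named probe each, so brightness decided nothing. 5 of the 6 listed genes were found among 13336 named genes, and no probe carried the symbol Pdgfrb in the annotation used, so that gene was not analysed here. The cells came from the calvaria, or skull vault (S-Bdc), and from the forelimb's ulna (L-Bdc), of 5 rats. Per the labels the animals were adult and both cultures of a number came from the same rat, and no treatment is listed. The study's methods give them as male CD rats, and give the cells as the third population released by enzyme digestion of bone cleared of soft tissue and, in the limb, of growth ends and marrow, grown in medium with calf serum. Each of the 10 cultures was taken at passage 3 and 95% confluence and hybridised to 1 Illumina rat BeadChip array. Such a culture is a mixed population, and with bulk RNA fewer cells of a type and less RNA per cell cannot be told apart.

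Tnmd encodes a membrane glycoprotein of mature tendon and ligament cells, switched on by the tendon transcription factor scleraxis. Dpt encodes a small matrix protein that binds decorin and TGF-beta and speeds the assembly of collagen fibrils. Pdgfra is a receptor tyrosine kinase that marks mesenchymal progenitors and many fibroblasts, whereas Fap is a surface protease that cuts after proline and marks activated fibroblasts. Pdpn is a mucin-like membrane protein of lymphatic endothelium, of fibroblasts of lymphoid tissue and of the early osteocyte, where it is also called E11.

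The 250 bases before the annotated start of Tnmd and Dpt are shown because these were the pair of markers with the largest difference between sites. Both are from RefSeq on build GRCr8 and run 5′ to 3′ on the strand of the gene, Tnmd at chrX:101350182-101350431 and Dpt at chr13:79656091-79656340, each on the + strand. Capitals mark the E-box CANNTG, the motif bound by basic helix-loop-helix factors such as scleraxis and Twist1, which reads the same on both strands.
Tnmd: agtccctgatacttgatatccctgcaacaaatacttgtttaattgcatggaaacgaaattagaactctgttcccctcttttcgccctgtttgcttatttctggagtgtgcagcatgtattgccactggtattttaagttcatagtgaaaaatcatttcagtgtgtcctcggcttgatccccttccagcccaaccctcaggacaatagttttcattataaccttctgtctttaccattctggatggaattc
Dpt: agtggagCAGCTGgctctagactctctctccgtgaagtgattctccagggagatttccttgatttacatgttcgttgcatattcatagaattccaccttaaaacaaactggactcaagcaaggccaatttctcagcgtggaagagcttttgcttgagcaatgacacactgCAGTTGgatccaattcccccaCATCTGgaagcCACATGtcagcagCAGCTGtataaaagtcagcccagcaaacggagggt
The Dpt window held 5 copies of CANNTG, 1 of which was CATCTG, and the Tnmd window held 0. Dpt also had TATAAA beginning 29 bases before the start, a match that overlapped no E-box, and Tnmd had 0 copies. Over 27457 promoter windows of this length, 65.2% held CANNTG, 13.7% held CATCTG or its reverse CAGATG and 13.1% held TATAAA on either strand. These matches describe letters only and are not evidence of binding.

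The arrays were alike in overall signal, with median raw signals of 40.6 to 48.1 units, and precision is limited by how many arrays there are. Values below are normalised log2 signals, and differences are S-Bdc minus L-Bdc on that scale, fitted with the rat as a block (SE, n = 5 pairs). Because 50 units were added before the logarithm, this scale understates the change of dim probes. For the 5 markers, ratios of the deposited processed signals are therefore given beside it. Most list genes below are given on this scale alone, so changes of the dim ones are understated. Irx5, at 1.25, had a processed ratio of 5.64, and Bmp2, at -0.67, one of 0.266. A probe was called at a Benjamini-Hochberg adjusted p under 0.05 over all 22517 probes in limma. In all 9.1% of probes were called, 4.43% higher and 4.68% lower in S-Bdc (997 and 1053 probes). With no normalisation between arrays the split was 513 higher and 357 lower.

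All 5 markers were higher in S-Bdc than in L-Bdc, and all 5 were called, against 4.43% of all probes called in that direction. Dpt and Tnmd differed most, and Pdpn, Pdgfra and Fap by less. Each was higher in the skull culture in all 5 rats, as were 8.15% of all probes. Since the genes were picked with these arrays' results known, nothing is read from that count, and the adjusted p-values that follow describe the fit and are not independent evidence.

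**Figure D1:**
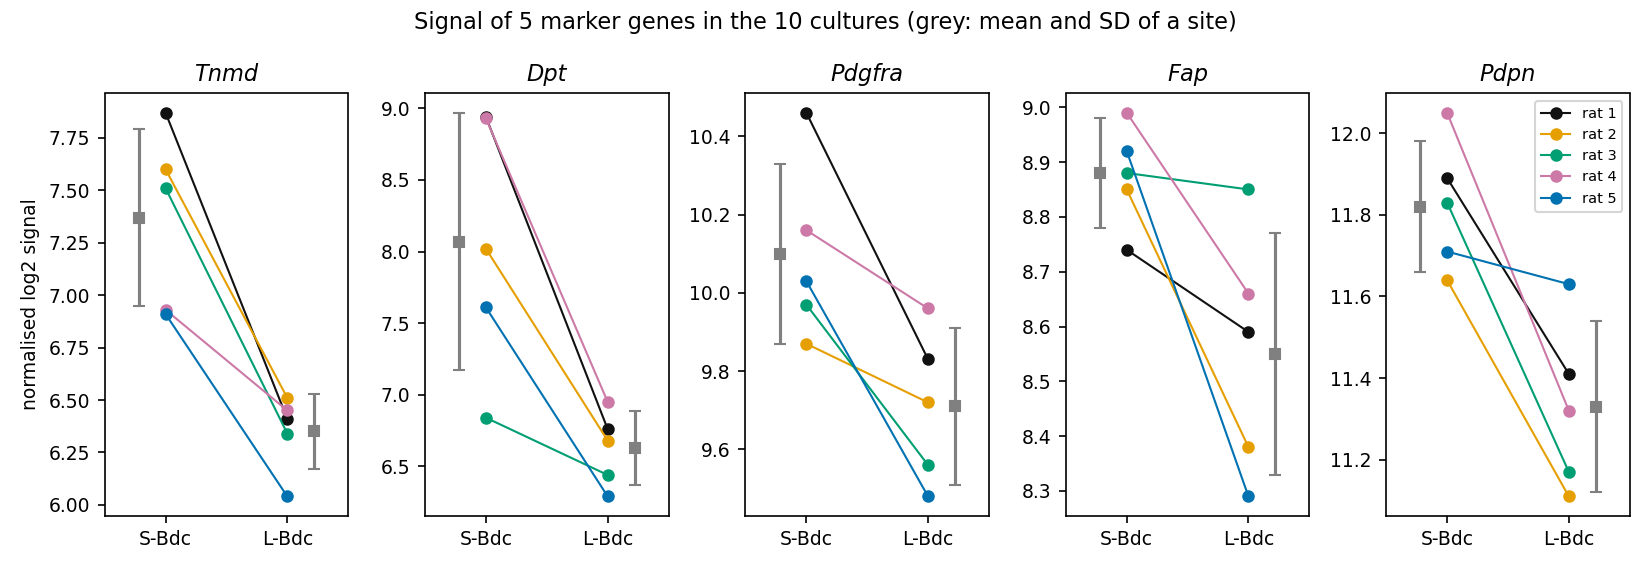
Normalised log2 signal (vertical axis, scaled separately for each gene) of Tnmd, Dpt, Pdgfra, Fap and Pdpn in S-Bdc and L-Bdc, with a line joining the 2 cultures of each rat and grey squares and bars for the mean and SD of a site (n = 5). Every line falls from S-Bdc to L-Bdc, steeply in Dpt in rats 1 and 4 and almost level in Fap in rat 3 and Pdpn in rat 5.

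Tnmd was measured at 7.87, 7.60, 7.51, 6.93 and 6.91 in S-Bdc of rats 1 to 5. In L-Bdc it was 6.41, 6.51, 6.34, 6.45 and 6.04. All 5 S-Bdc cultures lay above all 5 L-Bdc cultures, a separation found in this direction for 3.45% of all probes. The means were 7.37 ± 0.42 (SD, n = 5) and 6.35 ± 0.18, a difference of 1.02 ± 0.11 (limma, adjusted p = 0.000561), which is 2.02-fold. In the deposited processed signals, Tnmd averaged 110 ± 49.2 units (SD, n = 5) in the skull and 20.8 ± 9.81 in the limb cultures, a ratio of 5.29. Low signals were thus typical of the limb cultures. The ulnar culture of rat 5, at 4.53 units, was inside the background range of up to 8.514 units, and the 4 other ulnar cultures were above it.

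Dpt showed the largest difference of the 5 and also the widest spread. It was measured at 8.94, 8.02, 6.84, 8.93 and 7.61 in S-Bdc of rats 1 to 5. In L-Bdc it was 6.76, 6.68, 6.44, 6.95 and 6.29. The groups overlapped, since the skull culture of rat 3 was below the ulnar culture of rat 4, while the other 4 S-Bdc cultures were above all L-Bdc cultures. The difference was 1.44 ± 0.21 (limma, adjusted p = 0.00218), or 2.72-fold, and the processed signals averaged 250.2 ± 174 units (SD, n = 5) in the skull and 38.9 ± 18.0 in the limb cultures, a ratio of 6.42. Within a rat the ratio of processed signals ran from 2.06 in rat 3 to 9.21 in rat 1. The call ended when the variance was moderated with a trend and robustly (adjusted p = 0.0678).

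The skull cultures differed from each other in Dpt more than in almost any other probe above background. Their SD was 0.90, against a median of 0.127 over the 9092 probes above background on all 10 arrays, and 0.11% of those probes had a larger SD. In the deposited signals the highest S-Bdc culture was 8.12 times the lowest. The L-Bdc cultures were closer together, with an SD of 0.26, which 4.19% of the probes exceeded. Tnmd was also variable in S-Bdc, where 1.45% of the probes had an SD above its 0.42. Fap was not, with an SD of 0.10 in S-Bdc that 71.3% of the probes exceeded.

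Pdgfra was measured at 10.46, 9.87, 9.97, 10.16 and 10.03 in S-Bdc of rats 1 to 5. In L-Bdc it was 9.83, 9.72, 9.56, 9.96 and 9.48. The groups overlapped through the skull culture of rat 2, which was below the ulnar culture of rat 4. The means were 10.10 ± 0.23 (SD, n = 5) and 9.71 ± 0.20, and the difference was 0.39 ± 0.08 (limma, adjusted p = 0.0112), or 1.31-fold, close to the ratio of 1.34 in the processed signals. Of the 5 calls this one was lost under the most alternatives. It ended under median scaling (adjusted p = 0.073), with no normalisation between arrays (0.134), without the rat block (0.0507) and without rat 3 (0.38 ± 0.09, adjusted p = 0.0534).

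Fap differed least. It was measured at 8.74, 8.85, 8.88, 8.99 and 8.92 in S-Bdc of rats 1 to 5. In L-Bdc it was 8.59, 8.38, 8.85, 8.66 and 8.29. In rat 3 the 2 cultures were almost equal, and the groups overlapped because that ulnar culture was above the skull culture of rat 1. The difference was 0.32 ± 0.08 (limma, adjusted p = 0.0397), or 1.25-fold, with a ratio of 1.29 in the processed signals. The call ended without rat 2 (0.29 ± 0.09, adjusted p = 0.127), without rat 4 (0.32 ± 0.10, adjusted p = 0.13) and without rat 5 (0.25 ± 0.08, adjusted p = 0.12).

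Pdpn was measured at 11.89, 11.64, 11.83, 12.05 and 11.71 in S-Bdc of rats 1 to 5. In L-Bdc it was 11.41, 11.11, 11.17, 11.32 and 11.63. The groups did not overlap, though by little, because the ulnar culture of rat 5 stood near the lowest skull culture. The means were 11.82 ± 0.16 (SD, n = 5) and 11.33 ± 0.21, and the difference was 0.50 ± 0.09 (limma, adjusted p = 0.00569), or 1.41-fold, with the same ratio of 1.41 in the processed signals. With no normalisation between arrays the call ended (adjusted p = 0.0576).

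The rat with the smallest difference was not the same for the 5 markers. It was rat 4 for Tnmd (0.49), rat 3 for Dpt (0.39) and for Fap (0.03), rat 2 for Pdgfra (0.15) and rat 5 for Pdpn (0.08). Rat 1 had the largest difference in Tnmd (1.46), Dpt (2.18) and Pdgfra (0.63), but the next to smallest in Fap (0.15). The largest difference in Fap was in rat 5 (0.63) and that in Pdpn in rat 4 (0.73).

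**Figure D2:**
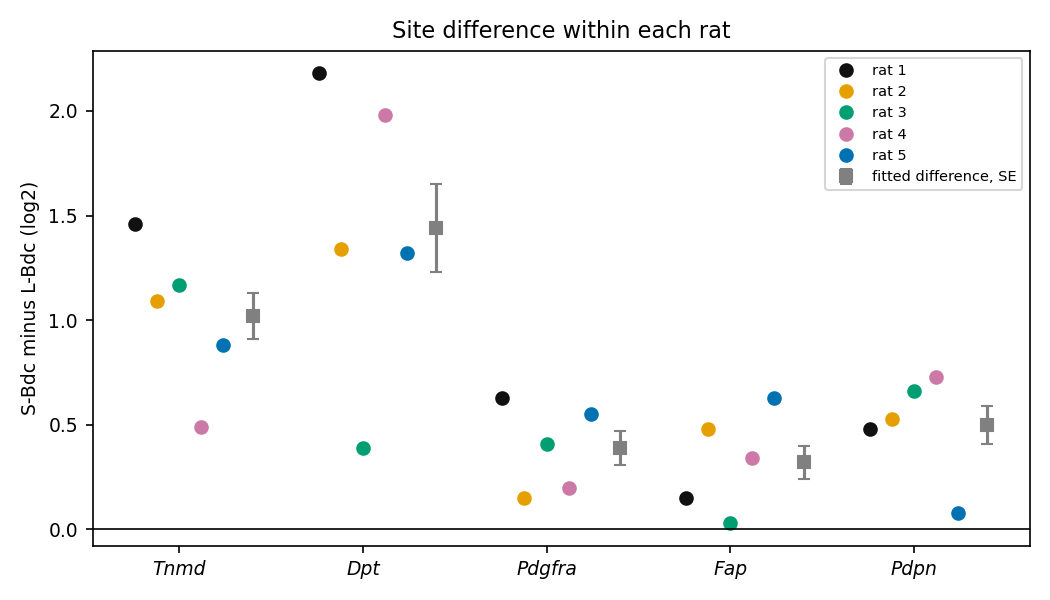
S-Bdc minus L-Bdc in normalised log2 signal (vertical axis) within each of the 5 rats (coloured points) for each marker, with the fitted difference and its SE (grey squares and bars). All 25 points are above 0, from 0.03 in Fap in rat 3 to 2.18 in Dpt in rat 1.

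Other genes of tendon did not follow Tnmd as a group. Of the 27 tendon and ligament genes on the array, S-Bdc had more of 4 and less of 4, and 19 were not called. Of all probes 4.43% were higher and 4.68% lower, and of the 9092 above background on all 10 arrays 9.48% and 10.5%. The median difference of the list was -0.0092, against -0.0015 over all probes. The higher genes were collagens and a collagen-binding proteoglycan, namely fibromodulin, Fmod, which steers collagen fibril growth in tendon (1.36 ± 0.21), and the collagen genes Col6a1 (0.73 ± 0.12), Col3a1 (0.63 ± 0.08) and Col1a1 (0.58 ± 0.06). The lower ones were thrombospondin 4, Thbs4, a matrix protein of tendon and muscle attachment (-3.38 ± 0.44), lubricin, Prg4, which lets tendon and joint surfaces glide (-1.65 ± 0.29), the growth response factor Egr1, which can drive tendon genes (-1.18 ± 0.08), and Tgfb2, a ligand that tendon progenitors need (-0.93 ± 0.06). The highest adjusted p among these 8 was 0.00678, that of Prg4 (limma). Rat 4 stood apart in Thbs4 and Prg4, with differences of -0.82 and -0.23. In the other rats they ran from -3.51 to -4.62 in Thbs4 and from -1.37 to -3.0 in Prg4. Chondromodulin, Cnmd, the closest relative of Tnmd and a gene of cartilage, was above background on 0 arrays of either site, as were the proteoglycan gene Kera and the genes Cilp2 and Fgf4. The transcription factors scleraxis and Mkx had no named probe and were not analysed here. Cnmd, Kera, Cilp2 and Fgf4 were named after their values were seen.

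Of 33 genes of fibroblasts and adventitial cells measured, 9 were higher in S-Bdc, 3 were lower and 21 were not called, against 4.43% higher and 4.68% lower of all probes. The fitted difference was above 0 in 19 genes and below 0 in 14, with a median of 0.052. Of the 9092 probes above background on all 10 arrays, which these genes resemble more in signal, 9.48% were higher and 10.5% lower. Among the higher genes were the small leucine-rich proteoglycans Ogn (1.15 ± 0.10) and Aspn (0.88 ± 0.05), the stromal membrane protein endosialin, Cd248 (0.77 ± 0.11), and the matrix glycoprotein fibulin 1, Fbln1 (0.53 ± 0.09). The collagens Col6a1, Col3a1 and Col1a1 stood in this list as well as in the tendon list, and Mfap5 (0.41 ± 0.08) and Col15a1 (0.33 ± 0.07) made up the rest. The lower genes were the hyaluronan receptor Cd44 (-0.85 ± 0.10), the actin-severing protein gelsolin, Gsn (-0.42 ± 0.09), and the mesenchymal homeobox gene Prrx1 (-0.28 ± 0.06). The 21 genes not called included vimentin, Vim (0.11 ± 0.06, limma adjusted p = 0.347), and the surface antigen Thy1 (-0.30 ± 0.09, adjusted p = 0.0896). They also included S100a4 (-0.041 ± 0.09, adjusted p = 0.888) and the collagen receptor Ddr2 (-0.015 ± 0.07, adjusted p = 0.954). Mfap5, Col15a1, Gsn, Prrx1, Vim, Thy1, S100a4 and Ddr2 were named after their values were seen.

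**Figure D3:**
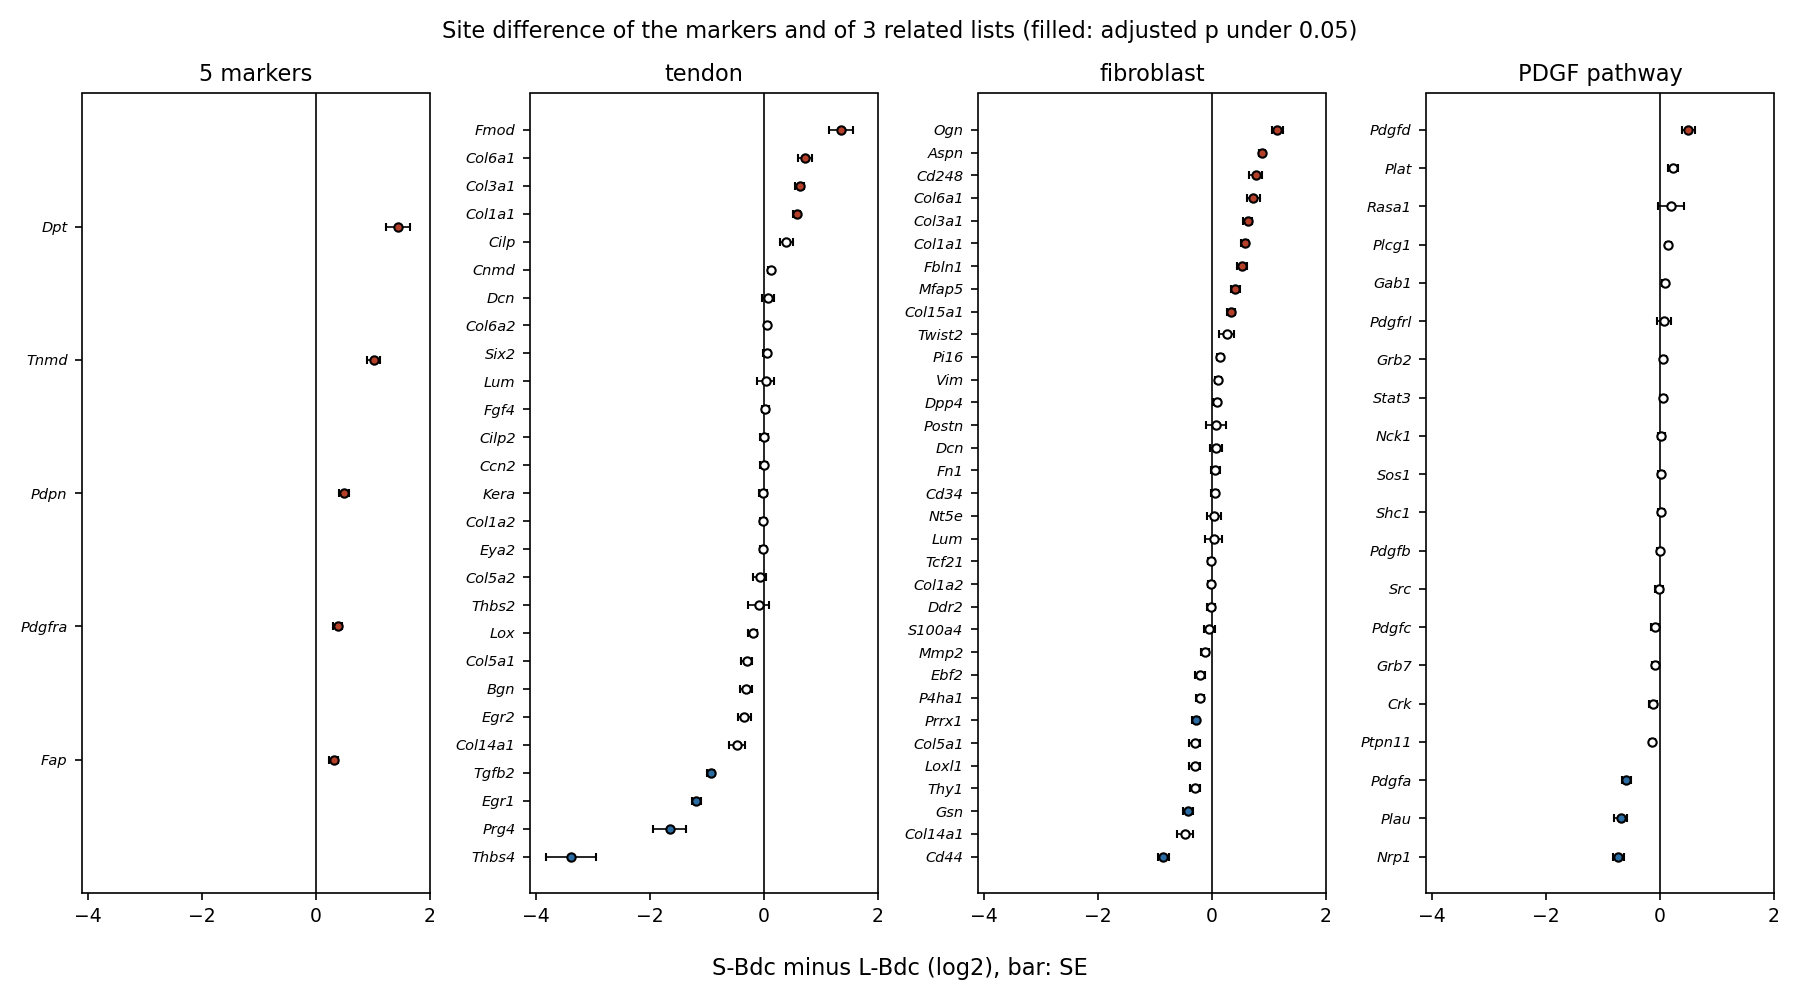
S-Bdc minus L-Bdc in normalised log2 signal (horizontal axis, the same in each panel, bars are SE, n = 5 pairs) of the 5 markers, 27 tendon genes, 33 fibroblast genes and 20 PDGF pathway genes. Red points were called higher in S-Bdc, blue points lower, and open points were not called; the tendon panel runs from Fmod at 1.36 to Thbs4 at -3.38, while the 5 markers are all to the right of 0.

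Of 20 genes around the PDGF receptor, 1 was higher and 3 lower in S-Bdc and 16 were not called, with a median difference of 0.021. Of all probes above background on all 10 arrays, 9.48% were higher and 10.5% lower, so in 20 genes these counts were near the background and nothing is read from them. Among the ligands, Pdgfa, whose product binds Pdgfra, was lower (-0.59 ± 0.08, limma adjusted p = 0.00125), and Pdgfd, whose product binds the beta receptor, was higher (0.50 ± 0.11, adjusted p = 0.0227). The call of Pdgfd ended under median scaling (adjusted p = 0.08), with no normalisation between arrays (0.14), with the floor of 16 units on processed signals (0.253) and without rat 4 (0.44 ± 0.13, adjusted p = 0.109). Pdgfc, also a ligand of Pdgfra, was not called (-0.08 ± 0.07, adjusted p = 0.649), and Pdgfb was above background on 0 arrays. The coreceptor neuropilin 1, Nrp1 (-0.73 ± 0.10), and the plasminogen activator Plau, which can activate Pdgfd (-0.69 ± 0.11), were lower. Plat, the activator of Pdgfc, had a difference of 0.23 ± 0.09 (adjusted p = 0.178). Of the genes that relay the receptor's signal, the nearest to a call were the phospholipase gene Plcg1 (0.15 ± 0.05, adjusted p = 0.143) and the phosphatase gene Ptpn11 (-0.13 ± 0.05, adjusted p = 0.159). Pdgfc and Pdgfb were named after their values were seen.

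Dermatopontin's partners in the matrix held 5 higher and 1 lower gene of 13 measured, with a median difference of 0.063. Of all probes 4.43% were higher and 4.68% lower, and of those above background on all 10 arrays 9.48% and 10.5%. Because the list was chosen with earlier results known, nothing is read from its count. The lower gene was Tgfb1, the growth factor that dermatopontin binds (-0.75 ± 0.07, limma adjusted p = 0.000201), and the proteoglycan decorin, Dcn, its best known partner, was not called (0.074 ± 0.10, adjusted p = 0.812). The higher ones included Fmod and the 3 collagens above, so this list repeats part of the tendon list. Dcn was named after its values were seen.

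Of 11 prolyl peptidases and other genes linked to Fap, 2 were higher and 0 lower in S-Bdc, both of them lysosomal, Dpp7 (0.51 ± 0.07) and Prcp (0.32 ± 0.07). Over all probes 4.43% were higher and 4.68% lower, and over those above background on all 10 arrays 9.48% and 10.5%. Nothing is read from the counts of this short list or of the podoplanin partners below. Dpp4, the closest relative of Fap, was above background on 3 S-Bdc arrays and 1 L-Bdc array (0.09 ± 0.06, adjusted p = 0.488). Of 8 partners of podoplanin, 1 was higher and 2 lower. Cd44, which podoplanin binds in the membrane, and moesin, Msn, which links it to actin (-0.58 ± 0.09), were lower, whereas Pdpn itself was higher. The mitochondrial chaperone gene Hspa9 was the higher one (0.38 ± 0.07). Dpp4 was named after its values were seen.

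Podoplanin also marks the early osteocyte, and the osteocyte list held 3 higher genes, Pdpn included, and 1 lower gene of 11. Over all probes 4.43% were higher and 4.68% lower, and over those above background on all 10 arrays 9.48% and 10.5%. Since Pdpn was picked with its difference known, nothing is read from this count. The other higher genes were the homeobox gene Irx5 (1.25 ± 0.11) and the actin-capping gene Capg (0.63 ± 0.10), and the lower one was Cd44. In this list 5 genes were above background on at least 3 arrays and 5 on 0, the mature osteocyte genes Sost and Fgf23 included. Of 15 osteoblast genes 3 were higher and 3 lower, to be set beside the same shares of all probes, and nothing is read from that count either. Those with the lowest adjusted p were osteopontin, Spp1 (-1.81 ± 0.12), the growth factor gene Bmp2 (-0.67 ± 0.06), Col1a1 and the homeobox gene Dlx5 (-1.12 ± 0.12). The summed processed signal of the list was 25458 to 30211 units over the S-Bdc cultures and 30982 to 35629 over the L-Bdc cultures. Spp1 alone averaged 3134.1 and 10796.8 units, and without it the sums overlapped, at 21849 to 27184 units for the skull and 20060 to 24955 for the limb. Col1a1, Spp1, Sparc, Alpl and Ibsp were above background on all 10 arrays, but Phex and Tnfsf11 were on 0, and osteocalcin, Bglap, was on 3 S-Bdc arrays and 1 L-Bdc array. Sost, Fgf23, Sparc, Alpl, Ibsp, Phex, Tnfsf11 and Bglap were named after their values were seen.

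Marker lists of other cell types stood beside the 5 markers as follows, and their part in the differences was not tested. Their counts are to be set beside the 4.43% of all probes called higher and 4.68% called lower. Among probes above background on all 10 arrays these shares were 9.48% and 10.5%, and nothing is read from the counts. Genes given here as above background on 0 arrays, and Lyve1, were named after their values were seen. Of 10 blood endothelial genes 0 were called (2 at an unadjusted p under 0.05 in limma). These 2 were Egfl7 (-0.27 ± 0.08, adjusted p = 0.0789) and Flt1 (-0.15 ± 0.06, adjusted p = 0.195). In this list 4 genes were above background on at least 3 arrays and 5 on 0, Cdh5 and Vwf included. Their summed processed signal was 73 to 116 units over the S-Bdc cultures and 120 to 173 over the L-Bdc cultures, and without Egfl7 it was 45 to 70 and 58 to 74. Of 5 lymphatic genes, relevant to podoplanin, 1 was lower in S-Bdc, reelin, Reln (-2.31 ± 0.22). The defining marker Prox1 was above background on 0 arrays and Lyve1 on 1, an L-Bdc array, while 3 genes of the list were on at least 3 arrays. The summed lymphatic signal was 50 to 189 units for the skull and 392 to 1018 for the limb. Reln averaged 85.2 units in the skull and 649.7 in the limb cultures, where it made up nearly all of the sum. In the skull its part of the sum was smaller, with a signal down to 20.5 units in rat 2. The other 4 genes together summed to 19 to 34 units for the skull and 15 to 28 for the limb. Of 13 pericyte genes, relevant to the PDGF receptors, 2 were higher and 1 lower. In this list 8 genes were above background on at least 3 arrays and 3 on 0, Rgs5 and Mcam included. Angpt1 was higher (0.91 ± 0.09), Cspg4 lower (-0.35 ± 0.06), and Abcc9, above background on 0 L-Bdc arrays, at least 1.37-fold higher. Their summed signal overlapped between the sites, at 2206 to 2846 units for the skull and 1761 to 2330 for the limb.

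Of 15 skeletal muscle genes, markers of the tissue that tendon joins to bone, 0 were called (2 at an unadjusted p under 0.05 in limma). These 2 were Myh2 (0.20 ± 0.07, adjusted p = 0.108) and Myod1 (-0.28 ± 0.10, adjusted p = 0.142). Myod1 was above background on 1 S-Bdc array and 2 L-Bdc arrays. In this list 7 genes were above background on at least 3 arrays and 6 on 0, Myog and Ckm included. The muscle sum was 91 to 141 units for the skull and 102 to 153 for the limb. Of 9 cartilage genes 0 were called (1 at an unadjusted p under 0.05 in limma), with sums of 83 to 159 and 113 to 166 units. On at least 3 arrays 3 of them were above background, and 5, Col2a1 included, were on 0. Lowest in adjusted p was Cnmd, itself above background on 0 arrays (0.12 ± 0.05, limma adjusted p = 0.23). Of 14 macrophage and osteoclast genes 1, Mmp9, was lower (-0.20 ± 0.05), and the sums were 1903 to 2643 and 2226 to 2750 units. On at least 3 arrays 5 of them were above background, and 7, Ptprc and Adgre1 included, were on 0. Most of these sums was Ctsk, which averaged 1799.7 units in the skull and 1982.3 in the limb cultures. Without Ctsk the sums were 355 to 471 and 364 to 657 units. Of 10 adipocyte genes 1, Lpl, was higher (0.48 ± 0.07), and the sums were 4652 to 6171 units for the skull and 3051 to 5099 for the limb. On at least 3 arrays 6 of them were above background, and 4, Adipoq included, were on 0. Most of these sums was Lpl, which averaged 5208.4 units in the skull and 3740.5 in the limb cultures. Without Lpl the sums were 183 to 388 and 106 to 314 units. Of 12 neural and glial genes 1, Tubb3, was lower (-0.27 ± 0.07), with sums of 2322 to 2948 and 1860 to 2840 units. Most of these sums was Pmp22, which averaged 2177.4 units in the skull and 1856.6 in the limb cultures. Without Pmp22 the sums were 235 to 471 and 311 to 622 units. Pmp22 was named after its values were seen. Of 13 markers of skeletal progenitors, Alcam was higher (0.87 ± 0.08), Vcam1 (-1.60 ± 0.17) and Mx1 (-0.31 ± 0.07) were lower, and the sums were 16779 to 26768 and 17860 to 21556 units. On at least 3 arrays 9 of them were above background, and 3, the leptin receptor gene Lepr included, were on 0.

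**Figure D4:**
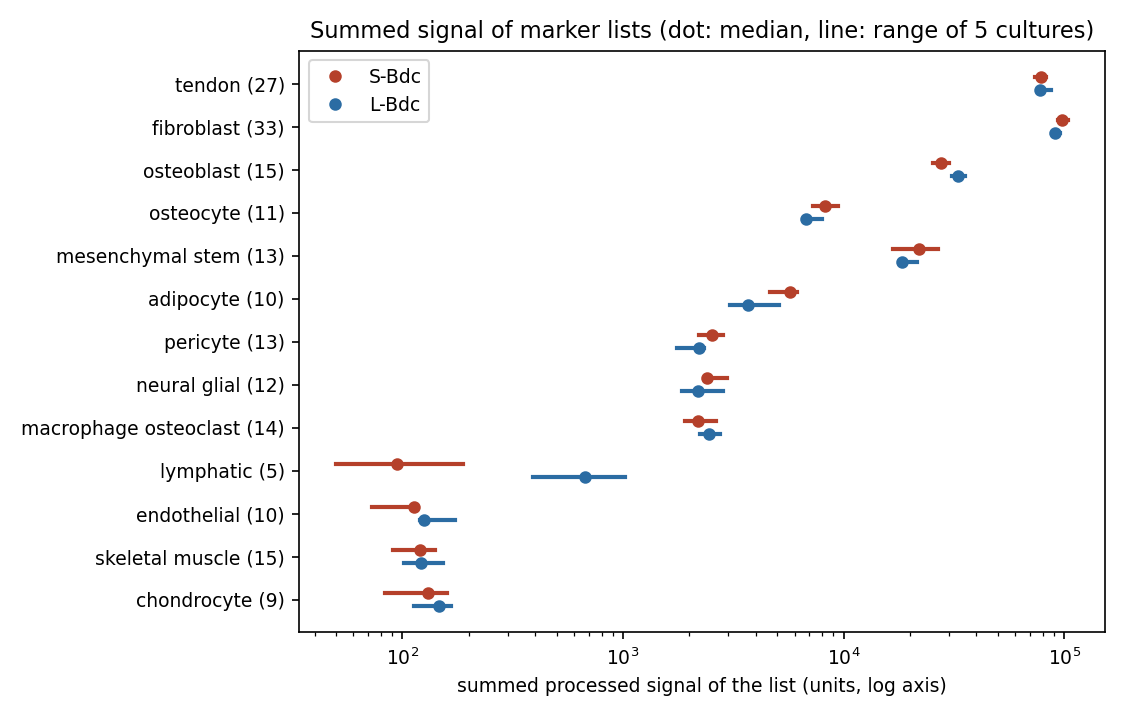
Summed processed signal (horizontal log axis, units) of each marker list in S-Bdc (red) and L-Bdc (blue), as the median (dot) and the range (line) of 5 cultures, with the number of genes measured in brackets. Only the sites are to be compared within a list: the lymphatic sum was lower in S-Bdc (50 to 189 units) than in L-Bdc (392 to 1018), and the osteoblast (25458 to 30211 against 30982 to 35629) and endothelial sums did not overlap either, while those of the other 10 lists did. Without the gene whose mean differed most, Reln, Spp1 and Egfl7 in turn, the ranges of each of these 3 lists overlapped. The endothelial gap was narrow, from 116 units in S-Bdc to 120 in L-Bdc, and is not credited to Egfl7 alone. Leaving out other genes of these 3 lists was not tried.

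The genes whose profile over the 10 arrays lay nearest to each marker were sought among 1580 other named genes that were called and above background on at least 3 arrays. Nearness was the root mean square distance of log2 signals after each gene was centred on its own mean, a description that rests largely on the shared site difference. Nearest to Tnmd were osteoprotegerin, Tnfrsf11b, the decoy receptor that blocks osteoclast formation (distance 0.193), the growth factor gene Igf2 (0.197) and the transcription factor Klf4 (0.232), against a root mean square of 0.587 for Tnmd around its own mean. Nearest to Dpt were Mfap4, a microfibril-associated matrix gene (0.459), the decoy interleukin receptor Il1r2 (0.533) and the guidance ligand Slit3 (0.558), but these distances were large beside the 0.933 of Dpt itself. Pdgfra was nearest to the scavenger receptor gene Colec12 (0.106), Otud5 (0.107) and Plagl1 (0.122), against 0.273. Fap was nearest to Dmac2 (0.096), Eci1 (0.098) and Fbxl6 (0.102), against 0.223, and Pdpn to Carhsp1 (0.092), Nprl2 (0.093) and Lancl1 (0.099), against 0.298.

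The direction of all 5 differences held under each of the 13 other ways of processing that were tried. Tnmd was called in 12 of them, Dpt and Pdpn in 11 each, Fap in 9 and Pdgfra in 8. On the deposited processed signals raised to a floor of 16 units none of the 5 passed, with adjusted p-values from 0.065 in Tnmd to 0.324 in Fap (limma), although the differences of Tnmd and Dpt were larger there, at 2.16 ± 0.28 and 2.45 ± 0.37.

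**Figure D5:**
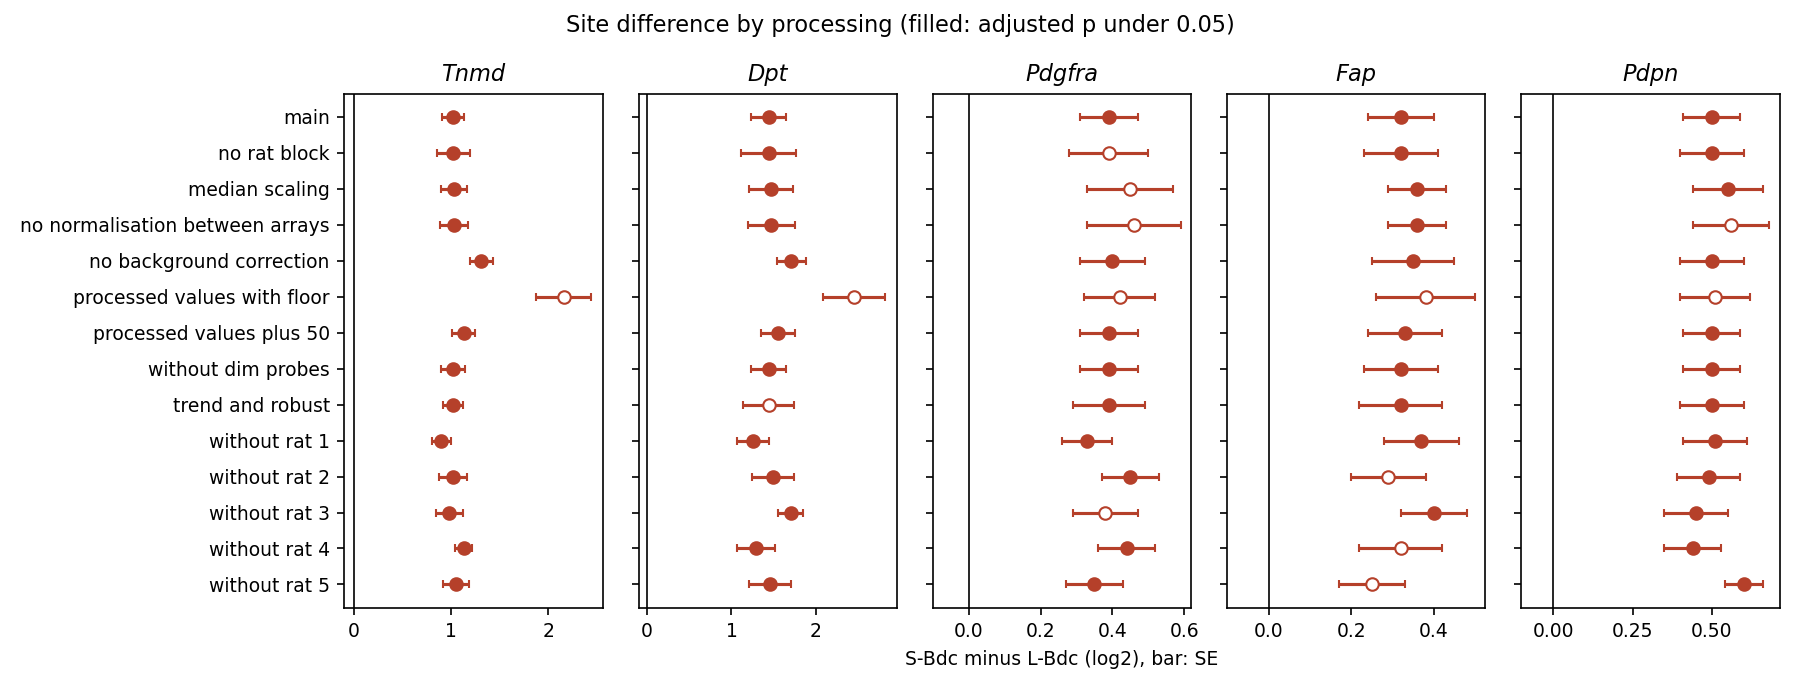
S-Bdc minus L-Bdc in log2 signal (horizontal axis, scaled separately for each gene, bars are SE) of each marker as fitted (main) and under 13 alternatives (rows). Filled points have an adjusted p under 0.05, and every point is to the right of 0; with the processed values raised to a floor, Tnmd was at 2.16 and Dpt at 2.45, and 0 of the 5 were filled.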

How the data were processed

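The deposited raw table holds each probe's average bead intensity, linear, as the authors exported it from BeadStudio, with no background subtracted and arrays not normalised to each other. A second table deposited by the authors holds processed intensities, which appear background subtracted and quantile normalised, the settings being not given in the sources used here. Its rows bear other identifiers, so the 22517 raw rows were matched by their ranks on 10 arrays, each to 1 value row. The largest rank distance was 0.264% of ranks and the next-best row at least 6.35 times farther. Gene names come from the platform annotation, in which 13787 probes had 1 symbol and 8730 none.

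Raw signals were corrected by normexp (offset 50), taken to log2, quantile normalised and fitted with rat and site in limma 3.58.1 (R 4.3.3), all probes kept, with Benjamini-Hochberg adjustment. The background range ran to 8.514 deposited units, the size below which 95% of the values under 0 lay. Where no array of a site exceeded it, a fold is "at least", with the dimmer site set at that limit or at the probe's own signal if higher. The labels give both cultures of a number to 1 rat, and deviations from site means correlated within rats at 0.0597 to 0.25. The pipeline was tested on simulated data. The study's BeadStudio difference score was not computed.

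Members and lists were chosen with earlier results of these data known. Named genes were the members, the genes with the lowest adjusted p of each list (up to 8, or 4 in smaller lists) and the 3 nearest to each called member. Genes outside this rule are marked in the text, and sums without 1 gene and the settings of Pdgfd were added after seeing the data. Alternatives changed the block, scaling, background correction, input table, dim probe filter and variance moderation, or left out each rat.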

Additional observations from a re-analysis of the deposited data

How the results depend on the processing

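With the processed values raised to a floor of 16 units, 209 probes in all were called in place of 2050, and 0 of the 5 markers in limma (5 at an unadjusted p under 0.05). There the differences were 2.16 in Tnmd (adjusted p = 0.065), 2.45 in Dpt (0.0826), 0.42 in Pdgfra (0.186), 0.38 in Fap (0.324) and 0.51 in Pdpn (0.161), and 1 tendon, 0 PDGF pathway (6 at an unadjusted p under 0.05) and 1 fibroblast gene were called in place of 8, 4 and 12. With no normalisation between arrays 870 probes, 3 markers, 2 PDGF pathway genes and 6 fibroblast genes were called, and Pdgfra was at 0.46 (adjusted p = 0.134) and Pdpn at 0.56 (0.0576). Pdgfra was not called under median scaling (0.45, adjusted p = 0.073) or with no replicate block (0.39, 0.0507), and Dpt not with trend and robust moderation (1.44, 0.0678). The fit without the pairing changed no other marker's call. The cause of these changes was not tested. Leaving out each rat in turn gave 0.90 to 1.13 in Tnmd, 1.25 to 1.70 in Dpt, 0.33 to 0.45 in Pdgfra, 0.25 to 0.40 in Fap and 0.44 to 0.60 in Pdpn, with 4 to 5 markers, 8 to 11 tendon, 3 to 5 PDGF pathway and 9 to 13 fibroblast genes called. Without rat 3, 1323 probes were called. Signal over background limits Tnmd most, with 1 of 5 ulnar arrays inside the background range.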
